A study of Mus musculus with 194 samples.

Results

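Activated CD8+ T-cells of mice were compared early and late after their last division. The T-cells came from spleens of male and female C57BL/6J mice and were purified magnetically with a CD8a kit. Antibodies against CD3 and CD28 activated them in vitro before loading, and the cells then grew with interleukin 2 in a microfluidic trap array that holds a founder and its descendants in known places until each cell is released. Each released cell gave 1 library by Smart-Seq2, which amplifies cDNA of polyadenylated RNA from a single cell. Cells were chosen by the hours since division that their labels state: early up to 3.0 h and late from 6.0 h, doublets left out, with at least 1000 genes above 0 TPM (the relative abundance of a transcript, with an equal sum in all libraries). This took 49 of the 194 cells in the series, 23 early and 26 late, out of 97 CD8+ T-cells that were no doublets and reached the minimum of genes. A further 3 late libraries did not reach it. Both groups were activated and received interleukin 2, and there was no resting group.

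The unit of replication was the lineage, the cells linked by sister and cousin labels to 1 founder, because such cells are not independent. The early cells came from 9 lineages and the late cells from 9 others, with 1 to 4 cells in each. Hours ranged from 0.5 to 2.93 with a median of 1.92 in the early cells and from 6.12 to 9.475 with a median of 6.475 in the late cells, so that the late group mostly held cells just past its limit. The nearest cells outside the limits were at 3.01 and 5.61 h. Another 43 cells of 13 lineages lay between the limits and were kept apart. Cells between the limits whose lineage also held early or late cells are not among them, and entered only the fits on hours over all lineages. A lineage is named below by the lowest-numbered cell that its labels link, as in CD8_5. The early lineages CD8_69 and CD8_70 held 1 cell each, at 1.98 and 2.0 h, and were counted apart. Whether they share a founder was not tested, and a fit with both as 1 lineage is given below. The labels name no animal, culture or run, so differences between mice cannot be told apart from differences between lineages, and the p-values measure the spread between lineages only.

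A dividing cell passes through G1, in which it grows and commits to a further cycle, S phase, in which DNA is copied, G2 and mitosis. E-type cyclins and the licensing factors that load the replicative helicase are made under E2F control around the entry into S phase. The genes of the mitotic kinases, the spindle and the anaphase-promoting complex (APC/C), the ubiquitin ligase that ends mitosis, are transcribed later, in G2 and mitosis, largely through CCAAT boxes and CHR elements in their promoters, and APC/C then removes many of their proteins. An activated CD8+ T-cell has a short cycle in which growth driven by Myc, sterol synthesis and cytokine signals runs beside the cell cycle.

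The promoters of 4 genes of this late programme are shown first, since the results on mitotic genes turn on such genes: Cdk1, the kinase that drives entry into mitosis, Plk1, a kinase of spindle assembly and mitotic exit, Ccnb1, the B-type cyclin that activates Cdk1, and Top2a, the topoisomerase that untangles sister chromatids. Each line gives the 250 bases before the RefSeq start of the gene, 5′ to 3′ on the strand of the gene, in build GRCm38.p6. Capitals mark matches on either strand to the letters CCAAT (the CCAAT box), TTTGAA or TTCGAA (letters of CHR elements) and TTTGGCGC, TTTCCCGC or TTTCGCGC (letters of E2F sites).
Cdk1, chr10:69352913-69353162, minus strand: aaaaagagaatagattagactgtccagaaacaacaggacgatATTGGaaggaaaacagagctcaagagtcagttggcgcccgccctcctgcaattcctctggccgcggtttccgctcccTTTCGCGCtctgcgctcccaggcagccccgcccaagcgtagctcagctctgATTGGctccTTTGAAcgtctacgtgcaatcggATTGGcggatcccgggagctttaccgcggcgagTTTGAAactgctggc
Plk1, chr7:122159185-122159434, plus strand: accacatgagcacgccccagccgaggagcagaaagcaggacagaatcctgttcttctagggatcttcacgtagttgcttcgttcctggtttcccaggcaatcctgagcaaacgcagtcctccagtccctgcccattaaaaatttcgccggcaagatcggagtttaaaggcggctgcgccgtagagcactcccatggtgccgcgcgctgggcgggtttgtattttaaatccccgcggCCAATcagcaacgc
Ccnb1, chr13:100786487-100786736, minus strand: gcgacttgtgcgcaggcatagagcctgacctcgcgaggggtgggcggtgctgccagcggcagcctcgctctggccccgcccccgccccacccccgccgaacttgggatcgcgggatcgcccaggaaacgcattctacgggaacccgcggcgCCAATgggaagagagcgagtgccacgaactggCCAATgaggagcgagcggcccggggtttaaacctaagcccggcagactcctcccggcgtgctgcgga
Top2a, chr11:99024190-99024439, minus strand: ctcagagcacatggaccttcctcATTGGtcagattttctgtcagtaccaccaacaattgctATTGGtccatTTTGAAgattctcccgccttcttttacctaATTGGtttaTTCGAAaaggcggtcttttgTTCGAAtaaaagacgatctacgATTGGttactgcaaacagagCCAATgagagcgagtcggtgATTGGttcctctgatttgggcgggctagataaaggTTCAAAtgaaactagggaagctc
Cdk1 holds 6 matches in this stretch, 3 of them CCAAT boxes, and Top2a holds 10. The CCAAT box of Plk1 begins 14 bases before the start, and a TTTGAA of Plk1 lies at base 31 after it, outside the stretch shown.

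The libraries of the 2 groups were compared before any gene. Early lineages had 5528 to 9784 detected genes per cell (mean 7412 ± 1287, SD, n = 9 lineages) and late lineages 4830 to 9166 (mean 6678 ± 1314, SD, n = 9), a difference of -734 that did not pass an exact permutation test (2-sided, p = 0.248). Rn45s, the 45S precursor of ribosomal RNA, took 26.7% ± 6.57 of the TPM in early and 19.9% ± 6.23 in late lineages (SD, n = 9 each, exact permutation test, 2-sided, p = 0.0416), and since TPM sum to the same total its share scales every other gene. The TPM keep no sequencing depth. The study lists quality metrics for each library, which were not used here, so depth was not compared between the groups. The 7 CD8 T-cell markers were above 0 TPM in both groups, with Cd3e and Cd8a in every early and late cell, and their summed level was 1127 to 4580 TPM over early and 1397 to 4827 TPM over late lineages. Defining markers of other spleen cells were at 0 in all 49 cells: Pax5 and Ebf1 of B cells, Lyz2 and Cd14 of monocytes, S100a8 and S100a9 of neutrophils, Flt3 of dendritic cells and Ncr1 of NK cells. Of the 7 B-cell markers 4 were above 0 in some early cell and 3 in some late cell, with sums of 0 to 56.7 TPM over early and 0 to 83.4 TPM over late lineages, and the 6 NK-cell markers summed to 1.32 to 62.4 TPM over early lineages and at most 78 TPM over late ones. No other such list exceeded 33.2 TPM in any lineage. Xist, transcribed from the inactive X chromosome, was present in 4 of 9 early and 5 of 9 late lineages and Y-linked genes in the other lineages, so that both groups held cells of animals of both sexes.

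**Figure D1:**
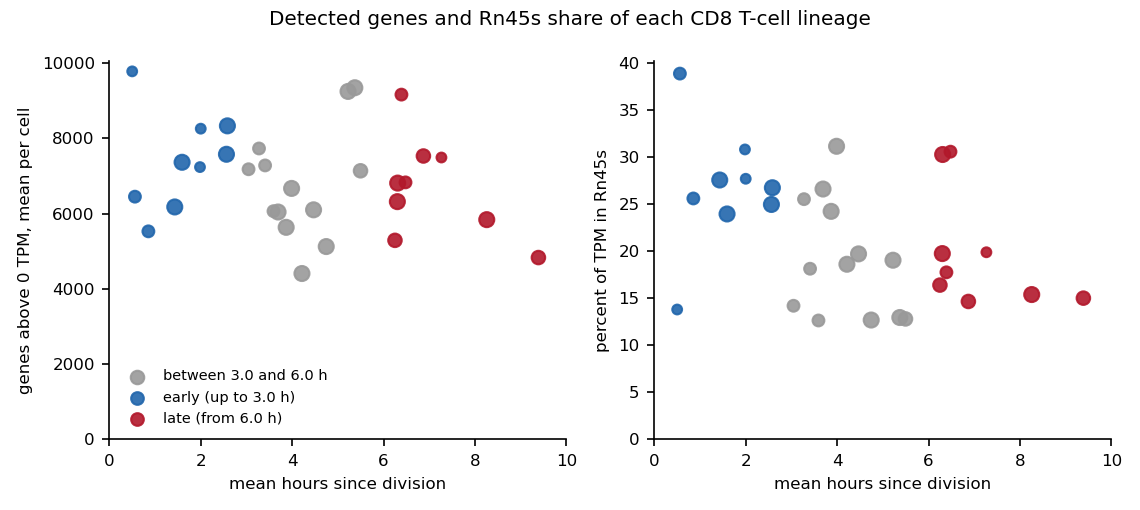
Mean number of genes above 0 TPM per cell (left) and mean percent of TPM in Rn45s (right) against the mean hours since division of each CD8+ T-cell lineage, where point size grows with the number of cells in the lineage. Detected genes of early (blue) and late (red) lineages overlap, while 8 of the 9 early lineages lie above 23% Rn45s and 7 of the 9 late ones below 20%.

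Over all 9997 genes tested, no single gene passed the adjusted threshold between early and late lineages, and the lowest adjusted p was 0.091. Differences are late minus early means of ln(TPM + 1), natural logarithm, tested with limma and Benjamini-Hochberg adjustment over all genes, with an adjusted p under 0.05 counted as called. The called share was thus 0%. At an unadjusted p under 0.05, 146 genes were higher late, 1.46% of those tested, and 770 were higher early, 7.70%. The exact permutation test and the exact Mann-Whitney U-test of each gene also called 0 genes. With this number of lineages their p cannot fall below 4.11e-05. Adjustment over 9997 genes lifts that p above 0.05 for any gene alone, so these 0 calls say little. The median difference of all genes was -0.20, so that most genes lay somewhat lower late, and differences are to be read against that shift. The excess of genes higher early moved with the number of detected genes: higher-late genes were 15.9% of those at an unadjusted p under 0.05, 44.1% with detected genes as a covariate and 40.6% with each cell centred on its widely detected genes. It was 36.5% with the mean TPM of a lineage, 32.3% with lineages of 2 or more cells and 27.1% with cells of 4000 or more genes. The share was 37.2% with continuous hours and detected genes as covariates. It was 21.9% with early up to 2.0 h and late from 7.0 h, and 21.8% with a pseudocount of 10 TPM. The remaining settings gave 10.9% to 17.6%, among them 15.6% with the Rn45s share as a covariate, 13.2% with a pseudocount of 0.1 TPM and 10.9% with TPM rescaled without Rn45s. One lineage could move these counts: 236 genes were higher late without the early lineage CD8_77 and 505 higher early without the late lineage CD8_5, and 3 genes were called higher late without the early lineage CD8_70. With CD8_69 and CD8_70 as 1 lineage, 1 gene was called higher late, Ube2c, at an adjusted p of 0.0441 in limma.

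The hours themselves gave calls. With hours as a continuous covariate over all 31 lineages with a recorded time, including the 13 between the limits, 4 genes rose, 0.0400% of those tested, and 5 fell, 0.05%. Cdk1, Ubb (a polyubiquitin gene), Tubb4b (a beta-tubulin) and Kpna2 (a nuclear import receptor) rose, and Ccne2 (cyclin E2), Ung (the uracil-DNA glycosylase that removes uracil from new DNA), Tubgcp4 (a subunit of the gamma-tubulin ring), Mgat2 (an N-glycan branching enzyme) and Esyt1 (a tether of endoplasmic reticulum and plasma membrane) fell. Of these, Cdk1 and Ccne2 belonged to the genes named by rule, and the others were picked out after their values were seen. The slope of Cdk1 was 0.26 ± 0.05 ln units per h (SE, limma adjusted p = 0.0276), that of Ubb 0.13 ± 0.02 (adjusted p = 0.0108), that of Ccne2 -0.36 ± 0.07 and that of Ung -0.45 ± 0.09 (both adjusted p = 0.0265 in limma). The hours fit used the early and late lineages too and is no independent sample. It also used a lineage between 4.5 and 6 h whose Cd8a averaged 0.26, where the lowest early lineage was at 4.40 and the lowest late one at 4.75. Cd3e was at 6.15 or more in all 4 lineages of that step, and the part of the low Cd8a lineage in the fit was not tested. With detected genes as a further covariate, added after the data were seen, the hours fit called 12 rising and 5 falling genes.

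Genes of mitosis stood higher in late lineages as a group. In the 5 lists of mitotic cyclins and kinases, APC/C and checkpoint, kinetochore, spindle and chromosome condensation, 31 of 120 tested genes (25.8%) were higher late at an unadjusted p under 0.05, beside 1.46% of all genes, and 1 was lower, Lmnb1, a nuclear lamin. The median difference was 0.37, beside -0.20 over all genes, and 87 of the 120 differences were positive. The count was 29 with the Rn45s share as a covariate, where 94 of all genes were higher late, and 43 with detected genes as a covariate, where 384 of all genes were. It was between 25 and 41 with each lineage left out. It was 12 when early was set to at most 2.0 h and late to at least 7.0 h, which leaves fewer lineages.

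Cdk1 was lowest at 1.79, with a median of 3.73 and a highest value of 4.80, over the 9 early lineages, and reached 4.46, 5.19 and 5.86 as the lowest, median and highest of the 9 late lineages. In 8 of the 9 late lineages it lay above every early lineage. The difference was 1.59 ± 0.35 (SE, limma adjusted p = 0.117), 4.93-fold on the TPM + 1 scale. Cdk1 was called in 8 of the 22 other settings tried, with adjusted p from 0.00368 to 0.786 over them. In GENCODE, whose record begins slightly upstream of the RefSeq start, the gene lies at chr10:69335146-69352938 on the minus strand of GRCm38.

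Ube2c, the APC/C-specific ubiquitin-conjugating enzyme, had a lowest, median and highest lineage mean of 3.68, 4.73 and 6.74 early and of 5.76, 6.92 and 7.52 late. Its ranges overlapped, with 7 of 9 early lineages below every late one. The difference was 1.62 ± 0.34 (SE, limma adjusted p = 0.091, and 0.00656 to 0.786 over the other settings, 8 of which called it). Aurka, a kinase of centrosome maturation, ranged from 0.00 over a median of 2.89 to 4.70 early and from 3.4 over 4.54 to 5.21 late, and was above 0 TPM in 17 of 23 early and 26 of 26 late cells. Its difference was 2.19 ± 0.52 (SE, limma adjusted p = 0.205). All genes named in the text, other than the following, were picked out after their values were seen, Ube2c and Aurka included. Those fixed by rule were Cdk1, Plk1, Ccnb1, Ccnb2, Ccna2, Cdc20, Mki67, Top2a, Mcm5, Rrm2, Tyms, Slbp, Myc, the D- and E-type cyclins, Cdkn1a, Cdkn1b and the T-cell genes Gzmb, Gzma, Prf1, Ifng, Il2ra, Cd8a and Cd3e, and Rn45s.

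Plk1 had a lowest, median and highest value of 2.54, 3.97 and 5.17 early and of 3.78, 5.22 and 6.30 late, and 5 late lineages exceeded all early ones. The difference was 1.22 ± 0.37 (SE, limma adjusted p = 0.337). Top2a ranged over 2.20, 3.87 and 5.50 early and 4.18, 4.96 and 6.19 late, with a difference of 1.12 ± 0.38 (SE, adjusted p = 0.403 in limma), and Ccnb1 over 3.58, 4.65 and 6.26 early and 4.87, 5.67 and 6.57 late, with a difference of 0.72 ± 0.30 (SE, adjusted p = 0.492 in limma). For each of these the early and late lineages overlapped and no test across all genes called them. Smc2, a core subunit of condensin, was the only gene of the 9997 whose late lineages all lay above all early ones (0.0100% of genes), at 2.40 to 3.47 early and 3.47 to 4.40 late, so that the groups nearly met. Its difference of 0.73 ± 0.29 had an adjusted p of 0.47 in limma, and its exact permutation p of 4.11e-05 is the smallest that 9 against 9 lineages can give. No gene had all its late lineages below all early ones (0%).

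Further members of these lists at an unadjusted p under 0.05 belonged to each of the 5 lists. Among kinetochore genes Spc25, a subunit of the Ndc80 complex, differed by 2.06, Ska3 by 1.33, Ska1 by 0.82 and Cenpf by 0.99. Among spindle and cytokinesis genes Prc1, which bundles the central spindle, differed by 2.08, Nusap1 by 1.89, the kinesins Kifc1, Kif22 and Kif20b by 1.67, 1.52 and 0.98, and Ckap2l by 1.08. Sgol1, the shugoshin that guards centromeric cohesion, differed by 1.52, Bub3 of the spindle checkpoint by 0.68, and Aurkb and Birc5, both of the chromosomal passenger complex, by 1.94 and 0.50. The tubulins Tuba1b, Tubb5 and Tubb4b differed by 0.33, 0.39 and 0.66. Tubulin and ubiquitin genes have near-identical copies among which RSEM divides reads, so the value of a single copy is uncertain.

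Ccnb2 and Cdc20 did not share this pattern. Cdc20, the activator of APC/C in mitosis, was at 4.34, 5.74 and 6.30 as the lowest, median and highest early and at 3.76, 5.83 and 6.01 late, with a difference of -0.14 ± 0.32 (SE, limma adjusted p = 0.915) whose sign changed with the setting. Ccnb2, the second B-type cyclin, was at 4.55, 5.66 and 6.80 early and at 4.70, 5.52 and 6.06 late, with a difference of -0.29 ± 0.27 (SE, limma adjusted p = 0.757). Ccna2, the cyclin of S phase and G2, differed by 0.22 ± 0.26 and Mki67, a marker of cycling cells, by -0.01 ± 0.38 (limma adjusted p = 0.812 and 0.995), and the sign of Mki67 changed with the setting. Arranged by hours, Cdc20 averaged 6.04 in the 3 lineages up to 1 h, 5.27 in the 6 between 1 and 3 h, 4.08 in the 9 between 3 and 4.5 h and 5.48 in the 4 between 4.5 and 6 h. Ccnb2 averaged 6.18, 5.55, 4.36 and 5.32 over the same steps, and Plk1 4.46, 3.73, 4.66 and 5.00. Ccnb1, higher late above, also stood high in the first hour: it averaged 5.45, 4.67, 4.65 and 5.37, and 5.71 between 6 and 7 h. The transcripts of Cdc20 and Ccnb2 were thus highest in the first hour and lowest between 3 and 4.5 h, whereas Cdk1 averaged 3.47 in the first hour and 5.24 in the 6 lineages between 6 and 7 h. This order by hours is a description with 3 to 9 lineages a step and was not tested.

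**Figure D2:**
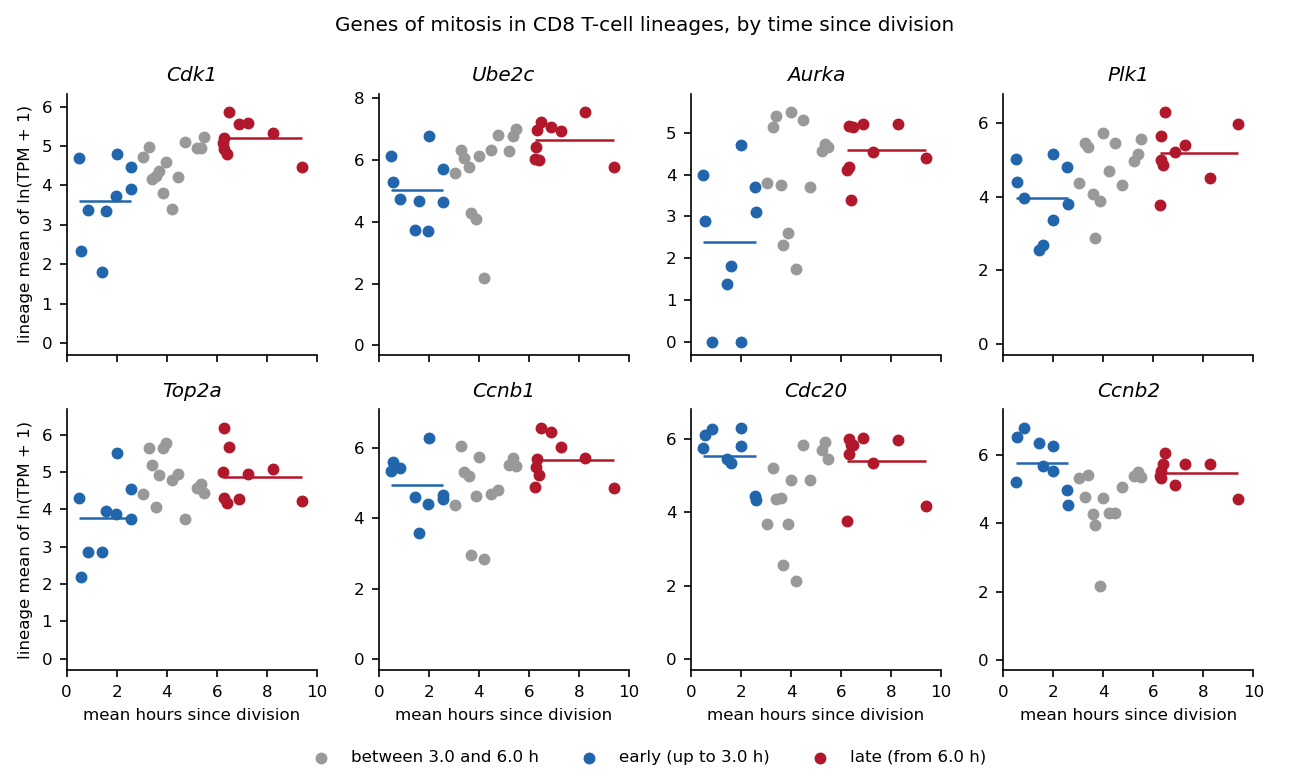
Lineage means of ln(TPM + 1) of 8 genes of mitosis against the mean hours since division, where each point is 1 lineage, and the horizontal lines are the means of the early (blue) and late (red) lineages, grey points lying between the limits. Cdk1, Ube2c and Aurka reach higher values late, while Cdc20 and Ccnb2 are high in the first hours and dip between 3 and 4.5 h.

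Genes of the entry into S phase and of DNA replication went the other way. Of 49 tested genes of E2F factors, licensing and replication, 14 (28.6%) were higher early at an unadjusted p under 0.05, beside 7.70% of all genes, and 0 were higher late. The median difference was -0.29, close to the -0.20 of all genes, so that a subset of the list and not its centre stood apart. The count was between 10 and 15 with each lineage left out, 10 with detected genes as a covariate and 7 with the Rn45s share as a covariate. Of all genes 486 and 507 were higher early with these covariates, beside 770 without.

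Ccne2, which with its kinase partner starts DNA replication, had a lowest, median and highest lineage mean of 2.51, 3.17 and 3.73 early and of 0.00, 1.53 and 3.19 late. It was above 0 TPM in 22 of 23 early cells and in 12 of 26 late cells, and 7 of the 9 late lineages lay below every early one. The difference was -1.81 ± 0.45 (SE, limma adjusted p = 0.281, 0.0239 to 0.734 over the other settings), 6.12-fold on the TPM + 1 scale. Ccne1, the other E-type cyclin, was at 2.42, 4.80 and 5.27 early and at 1.96, 3.25 and 3.97 late, a difference of -0.89 ± 0.42 (SE, limma adjusted p = 0.534). With early up to 2.0 h and late from 7.0 h the difference of Ccne1 was 0.06, and by hours it averaged 3.50 up to 1 h and 4.43 between 1 and 3 h. Cyclin D genes, which sense mitogens in G1, differed little: Ccnd2 by -0.01 ± 0.28 and Ccnd3 by -0.23 ± 0.23 (SE, adjusted p = 0.995 and 0.782 in limma). Of the inhibitors, Cdkn1a differed by -0.26 ± 0.70 and Cdkn1b by -0.07 ± 0.49 (adjusted p = 0.929 and 0.978 in limma), while Cdkn2d, the p19 inhibitor of Cdk4 and Cdk6, was higher late by 1.23 ± 0.43 (limma adjusted p = 0.411). The signs for Ccnd2, Ccnd3, Cdkn1a and Cdkn1b each changed under some setting.

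All 6 subunits of the replicative helicase, Mcm2 to Mcm7, were among the 14 genes. Mcm4 was at 4.92, 5.23 and 5.70 early and at 2.71, 3.78 and 5.26 late, with a difference of -1.16 ± 0.30 (SE, limma adjusted p = 0.292), and 7 of 9 late lineages were below all early ones. Mcm2 was at 5.14, 5.40 and 5.69 early and at 2.57, 4.28 and 5.54 late (-1.14 ± 0.32, SE, limma adjusted p = 0.328). Mcm5 differed by -0.59, Mcm7 by -0.69, Mcm3 by -0.74 and Mcm6 by -0.86. The early values of these genes lay within a narrow span and the late ones were scattered, with the late lineage CD8_5, at 9.39 h on average, lowest for all 6. CD8_5 also had the fewest detected genes of the early and late lineages, 4830 per cell, and the part of this in its low values was not tested. The last of the 14 genes was Wdhd1, a replisome factor. Cdc6 and Orc1, which load the helicase, differed by -1.01 and -1.09, Chaf1a, of the chromatin assembly factor, by -1.43, Uhrf1 and Dnmt1, which copy DNA methylation, by -1.12 and -0.72, and the polymerase subunits Pold1 and Pola2 by -0.93 and -0.74.

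Not all S-phase genes were lower. Rrm2, the regulated subunit of ribonucleotide reductase, was at 5.56, 6.01 and 6.57 early and 5.64, 5.93 and 6.33 late, with a difference of -0.05 ± 0.17 (SE, limma adjusted p = 0.944). Tyms, thymidylate synthase, differed by 0.38 ± 0.26 and Slbp, the stem-loop binding protein of histone mRNA, by -0.19 ± 0.22 (limma adjusted p = 0.673 and 0.813). Of 28 tested genes of nucleotide synthesis 3 were lower late at an unadjusted p under 0.05, Gmps by -1.25, Dck by -0.81 and Pfas by -0.80. This share of 10.7% lies near the 7.70% of all genes. The count was 1 without CD8_69, CD8_71, CD8_87 or CD8_1, 6 without CD8_49 and 5 without CD8_75. Of 52 tested histone genes 3 were lower late (5.77%, beside 7.70% of all genes), with a median of -0.21, beside -0.20 of all genes. That count was 7 without CD8_36, 6 without CD8_71 and 5 without CD8_49, CD8_87 or CD8_91, and most histone mRNAs lack the poly(A) tail by which Smart-Seq2 primes. Ung, called with hours above, was at 1.73, 3.99 and 5.24 early and at 0.00, 0.00 and 3.76 late, and above 0 TPM in 22 of 23 early and 8 of 26 late cells (-2.72 ± 0.57, SE, limma adjusted p = 0.091). The Ung value is the largest difference described here, and 6 of 9 late lineages lay below every early one.

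**Figure D3:**
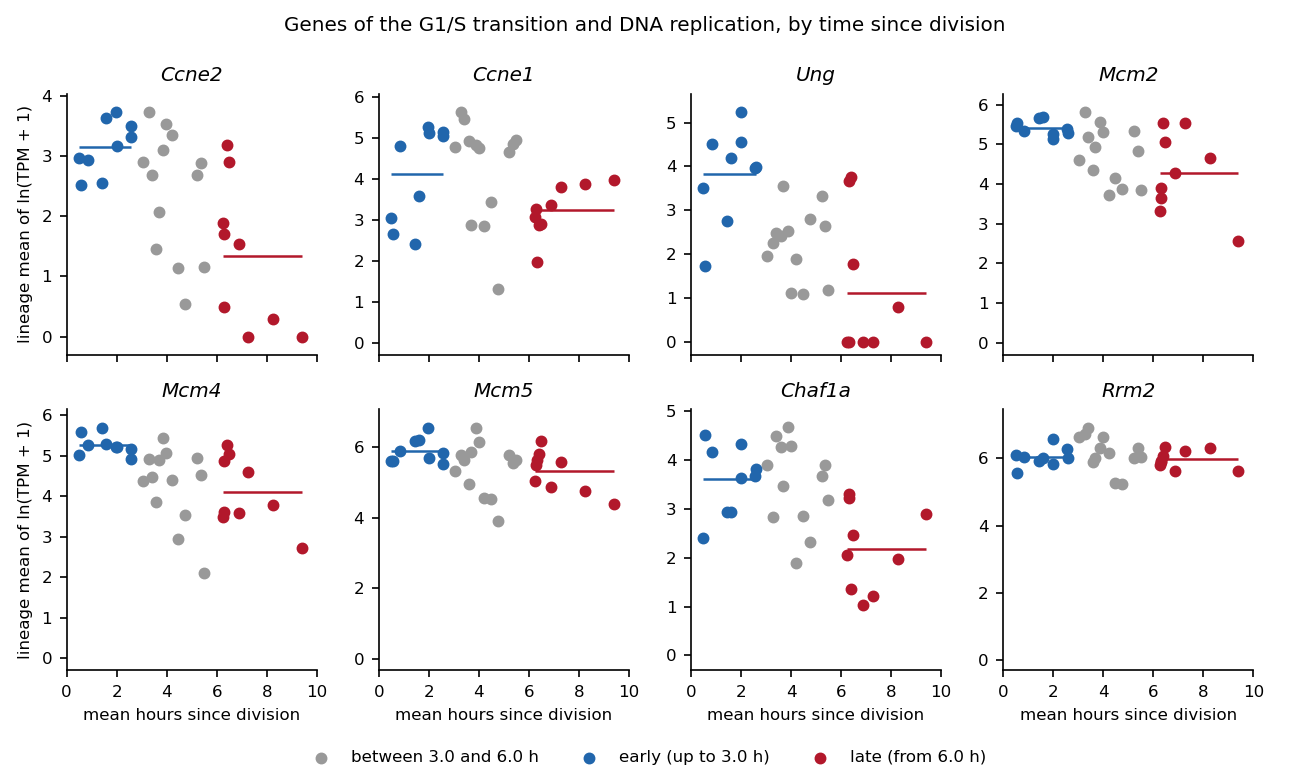
Lineage means of ln(TPM + 1) of 8 genes of S-phase entry and DNA replication against the mean hours since division, where each point is 1 lineage, and the lines are the means of the early (blue) and late (red) lineages, grey points lying between the limits. Ccne2 and Ung reach 0 in some late lineages, Mcm2 and Mcm4 are tight early and scattered late, and the Rrm2 groups overlap throughout.

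Growth genes had mostly negative differences, to be read beside the -0.20 of all genes. Myc, the transcription factor that drives growth of activated T-cells, was at 3.93, 5.39 and 5.90 early and at 0.59, 4.52 and 5.87 late, a difference of -1.52 ± 0.52 (SE, limma adjusted p = 0.411). In 3 late lineages it lay below every early one and in none above. Of 31 tested genes of Myc and ribosome biogenesis 7 (22.6%) were lower late at an unadjusted p under 0.05, beside 7.70% of all genes. Among them were Rrs1 (-1.92), Gnl3 (-1.37), Wdr43 (-1.01), Gar1 (-0.92) and Nop56 (-0.57). Higher late was 1 gene (3.23%, beside 1.46% of all genes), Mxd3 (2.07), a partner of Max that opposes Myc. The count lower late fell to 3 without CD8_1 and to 4 without CD8_25, CD8_29, CD8_69 or CD8_5, and rose to 9 without CD8_49. It was 3 with detected genes as a covariate, where 486 of all genes were lower late, beside 770 without. The median of this list was -0.38, and -0.05 with detected genes as a covariate, where all genes also had -0.05.

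Of 27 tested genes of sterol and fatty acid synthesis 8 (29.6%) were lower late and 0 higher, with a median of -0.71. Idi1, of the isoprenoid pathway, was at 2.89, 3.81 and 4.21 early and at 0.00, 2.27 and 4.66 late (-1.82 ± 0.47, SE, limma adjusted p = 0.292). In 8 of 9 late lineages Idi1 lay below every early lineage, and in 1 above. Fasn, fatty acid synthase, differed by -1.38, Hmgcs1 by -1.41, Lss by -1.27, Cyp51 by -1.06, Fdps by -0.71, Scd2 by -1.14 and Srebf1, a regulator of such genes, by -1.01. The count was 5 without the late lineage CD8_9, 9 without CD8_25, 5 with detected genes and 3 with the Rn45s share as a covariate. Of all genes 486 and 507 were lower late with these covariates, beside 770 without. Of 20 glycolytic genes Tpi1 was higher (0.84) and Slc16a1, a lactate transporter, lower (-1.10). Each is a share of 5%, beside 1.46% higher and 7.70% lower of all genes. With detected genes as a covariate 3 were higher and 0 lower, with centred cells 6 and 1, and with the Rn45s share 0 and 1. All genes gave 384 higher and 486 lower with detected genes, 342 and 501 with centred cells, and 94 and 507 with the Rn45s share.

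The genes of ribosomal proteins and of the respiratory chain had medians above 0. Of 79 tested ribosomal protein genes 3 were higher late (3.80%) and 0 lower, with a median of 0.13. Of 95 nuclear genes of the respiratory chain 4 were higher (4.21%) and 2 lower (2.11%), with a median of 0.13. The shares of all genes were 1.46% higher late and 7.70% lower. Both sets depended on the scaling: with the Rn45s share as a covariate 1 ribosomal protein gene was higher and 16 were lower late, and with each cell centred 20 were higher and 0 lower. All genes gave 94 higher and 507 lower with the Rn45s share, and 342 and 501 with each cell centred. The 3 ribosomal protein genes became 17 without the late lineage CD8_59, 10 without CD8_44 or CD8_77 and 5 without CD8_87. The count of respiratory genes higher late ran from 1 without the early lineage CD8_49 to 11 without the late lineage CD8_59, and was 2 without CD8_69, CD8_75 or CD8_78 and 9 without CD8_77.

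T-cell genes were described from a broad annotation and from narrower lists. Of 142 tested genes of a T-cell function annotation that the study used on these samples 21 (14.8%) were lower late at an unadjusted p under 0.05 and 1 was higher, with a median of -0.36, where 7.70% of all genes were lower late and their median was -0.20. The count lower late was 12 without the late lineage CD8_5 and 28 without CD8_59. It was 10 with the Rn45s share as a covariate, and 14 with detected genes as a covariate or with centred cells. Of all genes 507 were lower late with the Rn45s share, 486 with detected genes and 501 with centred cells, beside 770 in the main fit. Gzmb, the granzyme that kills target cells, ranged from 2.13 over 6.35 to 7.91 early and from 0.20 over 5.38 to 8.21 late. Its spread between lineages of 1 group was larger than the difference of -1.29 ± 0.87 (SE, limma adjusted p = 0.666). Perforin, Prf1, was above 0 TPM in 2 of 23 early and 3 of 26 late cells. Gzma and Ifng did not pass the filter on low genes: Gzma was above 0 TPM in 1 early and 2 late cells, and Ifng, interferon gamma, in 4 of 23 early cells and 0 of 26 late cells, which allows a share of up to 11.5% of cells with a TPM above 0. That limit covers counting error only and takes the cells as independent, which cells of 1 lineage are not. None of 16 tested genes of cytotoxic granules and effector cytokines reached an unadjusted p under 0.05.

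The receptor genes that define these cells differed by less than the spread between lineages. Cd8a was at 4.40, 5.72 and 6.41 early and 4.75, 5.87 and 6.41 late (0.15 ± 0.26, SE, limma adjusted p = 0.881), and Cd3e at 5.09, 6.40 and 7.21 early and 3.87, 6.26 and 7.13 late (-0.20 ± 0.31, SE, limma adjusted p = 0.864), with signs that changed under some settings. Of 20 tested genes of the T-cell receptor and its signalling 4 were lower late, the receptors Cd5 (-1.22) and Cd6 (-1.04), Ubash3a (-0.73), which restrains the signal, and Ptprc (-0.50), the CD45 phosphatase, a share of 20% beside 7.70% of all genes. The count was 1 without the late lineage CD8_9, 6 without CD8_59, 1 with detected genes as a covariate and 2 with the Rn45s share as a covariate. Of all genes 486 and 507 were lower late with these covariates, beside 770 without. Of 26 tested genes of cytokine receptors and signalling 5 were lower late, with a median of -0.71. Stat5b, which carries the interleukin 2 signal, was at 1.72, 2.75 and 3.71 early and 0.00, 1.44 and 2.1 late (-1.39 ± 0.42, SE, limma adjusted p = 0.335), and Stat4, which carries that of interleukin 12, at 3.61, 4.47 and 5.19 early and 2.28, 2.99 and 4.09 late (-1.12 ± 0.33, SE, limma adjusted p = 0.335). Il4ra, Il21r and Stat5a differed by -1.25, -0.94 and -0.92, while Il2ra, the high-affinity chain of the interleukin 2 receptor, differed by -0.48 ± 0.57 (limma adjusted p = 0.814). The count was 9 without the late lineage CD8_78 and 8 without CD8_59 or CD8_91.

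The list of interferon response and antigen presentation and that of heat shock and unfolded protein response had negative medians too. They were -0.39 and -0.26, beside -0.20 of all genes, and -0.39 and -0.12 with detected genes as a covariate, beside -0.05. Of 22 tested interferon response and antigen presentation genes 6 (27.3%) were lower late, with Tap1, Tap2 and Tapbp, which load peptides on MHC class I, at -1.07, -0.94 and -1.08, and Irf1 at -1.13. Of 24 tested heat shock and unfolded protein response genes 6 (25%) were lower late, among them the chaperones Calr (-0.92), Hspa5 (-0.58), Canx (-0.56) and Pdia3 (-0.68). The count was 3 without CD8_5 or without CD8_9, and 9 without CD8_91. Of the 26 tested homing, adhesion and inhibitory receptor genes, 3 were lower late, the integrins Itgal (-1.03) and Itgb7 (-0.73) and the receptor Klrd1 (-1.64), a share of 11.5% near the 7.70% of all genes. None of 24 tested effector and memory transcription factors other than Myb (-0.85) was at an unadjusted p under 0.05.

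**Figure D4:**
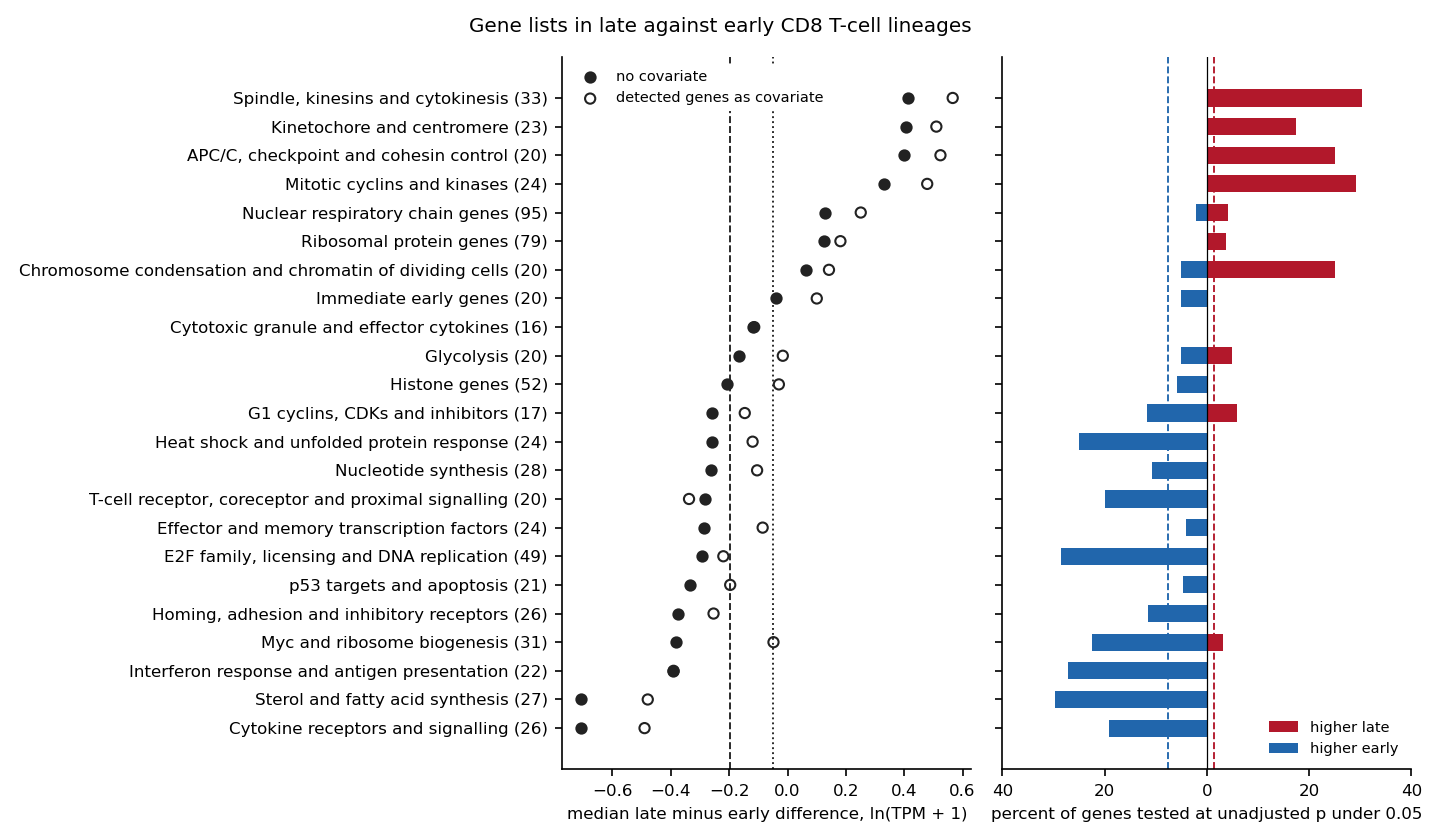
Left, median late minus early difference of ln(TPM + 1) of each gene list (number of tested genes in brackets), without a covariate (filled) and with detected genes as a covariate (open), beside the median of all genes without (dashed) and with (dotted) that covariate. Right, percent of each list higher late (red) and higher early (blue) at an unadjusted p under 0.05, beside 1.46% and 7.70% of all genes (dashed), and 4 mitotic lists have medians of at least 0.33, and the lists of cytokine receptors and of sterol synthesis are lowest at -0.71.

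The 13 lineages between the limits, which the early and late comparison did not use, were then examined. Among them CD8_13, CD8_14, CD8_16 and CD8_17, at 3.05 to 3.59 h, held both Xist and Y-linked transcripts. On the ln scale their Xist means were 4.84, 3.73, 1.82 and 2.68. Their Y-linked means were 1.55, 1.23, 2.12 and 1.12. Whether each held cells of 1 founder was not tested, and they also entered the hours fit and the step between 3 and 4.5 h. In the 13 lineages the slope on hours between 3 and 6 h called 0 genes in limma. At an unadjusted p under 0.05, 551 genes had a rising slope (5.51%) and 46 a falling one (0.460%). Of the 146 genes higher late, 69.9% had a positive slope there, beside 59.8% of all genes, and of the 770 higher early 413 (53.6%) had a negative slope, beside 40.2% of all genes. With detected genes as a covariate these shares were 58.9% beside 44.6% and 68.2% beside 55.4%. Of the lists, 13 of the 14 replication genes had a negative slope, and 18 of the 31 mitotic genes a positive one (58.1%, beside 59.8% of all genes). With detected genes as a covariate the counts were 13 of 14 and 16 of 31. Cdk1 had a slope of 0.27 ± 0.23 per h and Ccne2 of -0.48 ± 0.34 (SE, unadjusted p = 0.251 and 0.172 in limma). Cdc20 had the steepest slope of the genes named by rule that mark mitosis, 0.78 ± 0.30 (SE, unadjusted p = 0.0136 in limma).

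The same windows were compared in L1210, an established leukemia cell line of mouse that grows in culture without activation, with 10 early and 13 late lineages. The test of the difference between the 2 cell types called 0 of 11373 genes (0%). Cdk1 differed by 0.87 ± 0.56 in L1210, against 1.59 in CD8+ T-cells, and the difference of the differences was 0.73 ± 0.73 (SE, limma adjusted p = 0.904). Plk1 differed by -0.78 ± 0.55 in L1210 and 1.22 in CD8+ T-cells, a gap of 2.00 ± 0.74 (SE, limma adjusted p = 0.798), and Ubb by -0.01 ± 0.11 against 0.74, a gap of 0.75 ± 0.19 (SE, limma adjusted p = 0.414). Top2a differed by 1.46 in L1210 and Ccne2 by -0.73. The late window has no upper limit, and the late L1210 cells ran to later hours than the late CD8+ T-cells. The differences were therefore not taken at matched hours, and equal hours need not be equal phases of the cycle in the 2 cell types.

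The promoter letters shown above were counted over all genes with a RefSeq promoter, 250 bases before to 50 after the start. Of the tested genes 7473 had one in the table, as did 111 of the 146 genes higher late and 583 of the 770 higher early. A CCAAT box was in 56.8% of the promoters of genes higher late, in 37.9% of those higher early and in 40.4% of all tested. The CHR letters TTTGAA or TTCGAA were in 30.6%, 13.4% and 14.2%, and the E2F letters in 4.50%, 6.86% and 4.20%. Among the 24 mitotic list genes higher late with a promoter, 19 (79.2%) held a CCAAT box and 17 (70.8%) CHR letters, beside 70.8% and 64.6% of the 96 mitotic list promoters in all. Without them the other 87 promoters of genes higher late had 50.6% and 19.5%. Of 39 promoters of the replication list, 16 held E2F letters. These matches are descriptions of the letters in the window and not sites of a factor.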

How the data were processed

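Single cells were lysed on release and made into libraries with Smart-Seq2. The submitters' processing notes name bcl2fastq, TopHat2, RSEM 1.2.3 and build mm10, and the authors deposited RSEM estimates in TPM, a value per gene and cell that sums to a fixed total and keeps no read depth, so precision is set by the number of lineages and by the detected genes. RSEM shares reads between near-identical copies. Of the 23420 gene names, 27 had been turned into dates and were not used by name.

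Values were transformed to ln(TPM + 1) and averaged over the cells of a lineage, the cells linked by sister and cousin labels. Genes above 1.0 on that scale in more than 10% of cells were tested (9997) with limma 3.58.1 in R 4.3.3, with moderated variances, a mean-variance trend and Benjamini-Hochberg adjustment. Exact permutation tests over all 48620 relabellings (smallest p 4.11e-05) and exact Mann-Whitney U-tests were run with Python 3.11.15 and scipy 1.17.1. On simulated data for the early and late comparison with 9997 genes, 79 of 100 genes changed by an ln difference of 2 and 100 of 100 changed by 4 were called, with 4 unchanged genes called.

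The members and the gene lists were chosen with earlier results of these data known. Genes named by rule were a fixed list of 28, and other genes were named after their values were seen. Some items of the fixed lists are not reported here. Ribosomal protein genes were those named Rpl or Rps with a number, without Rps6k kinases and pseudogenes. Promoters came from RefSeq, GRCm38.p6, and motif shares were counted over 250 bases before to 50 after each start. Alternatives changed the pseudocount, filter, windows, weights, covariates and scaling, or left out each lineage. The hours fit with detected genes was added after seeing the data.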

Additional observations from a re-analysis of the deposited data

Results flagged for a closer look

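In 74 groups of lineages examined, 3 had a highest or lowest value far from the rest by Dixon's criterion, which chance gives in about 1 group in 20. Prf1 averaged 1.38 on the ln(TPM + 1) scale in the early lineage CD8_36, where the next early lineage had 0.463 and the median was 0. Cd3e was 3.87 in the late lineage CD8_44, below the next late lineage at 5.89 and the median of 6.26. Rn45s was 11.8 in the early lineage CD8_77, a lineage of 1 cell, below the next early lineage at 12.4 and the median of 12.5.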

How the results depend on the processing

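No paired analysis was possible because early and late lineages have different founders and share no numbering. Called higher late were 4 genes (hours), 2 (3 groups in the fit), 4 (weighted by cells), 12 (single cells, lineage as random effect), 3 (mean TPM), 8 (detected genes as covariate), 3 (centred cells), 2 (2 or more cells), 1 (CD8_69 and CD8_70 merged) and 12 (hours with detected genes). Called higher early were 5 (hours), 2 (3 groups), 1 (weighted), 10 (random effect), 2 (detected genes) and 5 (hours with detected genes). Genes higher late at an unadjusted p under 0.05 were 227 (4000 or more genes), 222 (hours), 298 (mean TPM), 384 (detected genes), 94 (Rn45s share), 342 (centred) and 429 (hours with detected genes), and higher early 468 (2.0 and 7.0 h), 486 (detected genes), 507 (Rn45s share), 501 (centred) and 434 (2 or more cells). Mitotic genes were 12 (2.0 and 7.0 h) and 48 (mean TPM), and replication genes 7 (Rn45s share). The slopes between the limits called 1 rising and 1 falling gene with detected genes as covariate. Without 1 lineage each, called higher late ranged from 0 to 3, called higher early from 0 to 1, unadjusted higher late from 113 to 236, higher early from 505 to 937, mitotic from 25 to 41 and replication from 10 to 15. Of 768 gene comparisons under 22 other settings 51 reversed, and of 630 without 1 lineage 38 did, in 11 of 35 genes in all, and the cause was not tested. The reversed differences follow, in ln units, and per h for the settings with hours. Under the setting pseudocount of 10 TPM they were Ccnd2 0.011. Under the setting cells with 4000 or more genes they were Ccnd2 0.044, Cdkn1b 0.045, Cdc20 0.10, Mki67 0.0703, Rrm2 0.037. Under the setting early up to 2.0 h, late from 7.0 h they were Ccnd2 0.21, Ccne1 0.056, Cdkn1a 0.047, Cd8a -0.0199. Under the setting ln of mean TPM per lineage they were Ccnd2 0.094, Cdkn1a 0.038, Cdc20 0.18, Rrm2 0.014, Cd3e 0.066. Under the setting detected genes as covariate they were Ccnd2 0.15, Cdkn1a 0.26, Cdkn1b 0.029, Mki67 0.13, Prf1 -0.098, Cd8a -0.018. Under the setting cells centred on widely detected genes they were Ccnd2 0.12, Cdkn1b 0.0604, Mki67 0.12, Rrm2 0.076. Under the setting lineages with 2 or more cells they were Ccnd2 0.12, Cdc20 0.074, Mki67 0.17, Prf1 -0.058, Cd8a -0.22. Under the setting CD8_69 and CD8_70 as 1 lineage they were Ccnd2 0.0058, Mki67 0.065, Prf1 -0.0093. Under the setting hours continuous with detected genes as covariate they were Ccnd2 0.013, Cdkn1a 0.014, Cdc20 0.028. Under the setting Rn45s share as covariate they were Ccnd3 0.15, Cdkn1b 0.076, Cdc20 0.097, Mki67 0.54, Prf1 -0.0704. Under the setting pseudocount of 0.1 TPM they were Cdkn1b 0.098. Under the setting lineages weighted by cells they were Cdkn1b 0.19, Cdc20 0.16, Mki67 0.18, Cd8a -0.0095. Under the setting single cells, lineage as random effect they were Cdkn1b 0.13, Cdc20 0.11, Mki67 0.15. Under the setting hours as a continuous covariate they were Cd8a -0.0033, Cd3e 0.0050. Without 1 lineage the ranges were Ccnd2 -0.11 to 0.073, Cdkn1a -0.55 to 0.0067, Cdkn1b -0.28 to 0.15, Cdc20 -0.29 to 0.062, Mki67 -0.19 to 0.19, Rrm2 -0.11 to 0.015, Prf1 -0.075 to 0.16, Cd8a -0.014 to 0.28, Cd3e -0.36 to 0.081. The TPM keep no depth, so a low gene at 0 cannot be told from one missed.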

Other observations

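The 4 CD8+ T-cell libraries labelled as doublets, at 0.2 to 0.55 h, were in no comparison. On the ln(TPM + 1) scale Cdc20 was 6.00 in CD8_43, 7.07 in CD8_46, 5.23 in CD8_63 and 6.47 in CD8_64, and Ccnb1 was 5.98, 6.36, 6.14 and 5.56 in the same libraries. Cdk1 was 4.13, 2.74, 3.79 and 3.64, and Ccne2 was at 0 in all 4.

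A further 3 cells whose labels give no hours were also left out. Cdk1 was 5.51 in CD8_80, 3.11 in CD8_81 and 3.76 in CD8_82, and Ube2c was 7.14, 6.29 and 5.65. Ccne2 was 0, 0.54 and 2.81, and Gzmb, 7.11, 6.30 and 6.57.

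Immediate early genes, the transcripts that stimulation raises first, had a median difference of -0.04 over 20 tested genes, with 1 lower late at an unadjusted p under 0.05 and 0 higher. Of 21 tested p53 target and apoptosis genes 1 was lower late, with a median of -0.34. Of 687 tested genes of a cell cycle annotation that the study used on these samples, 37 were higher late (5.39%, beside 1.46% of all genes) and 64 lower (9.32%, beside 7.70%), with a median of -0.16. The balance turned with the scaling: 71 were higher and 37 lower with detected genes as a covariate, with a median of -0.0015, and 64 were higher and 44 lower with centred cells. All genes gave 384 higher and 486 lower with detected genes, and 342 and 501 with centred cells. Without the late lineage CD8_5, 39 of the 687 genes were lower, and without CD8_44, 76.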
